A study of Rattus norvegicus with 24 samples.

Results

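The comparison of injured rat spinal cord at 56 days (8 weeks) with injured cord at 14 days (2 weeks) post-injury used 8 of the 24 arrays of the series, 4 rats on each day, and covered 14218 genes. The arrays were taken by their labels. All rats were female Wistar rats that underwent a laminectomy over thoracic segments T6 to T8. Both injured groups then received a 35 g aneurysm clip on the cord at T7 for 1 min, and cord containing the epicenter was taken from the rats of the first group on day 14 and from those of the second on day 56. The 2 days hold separate rats, and none was measured on both. Sham-operated rats, for which no source used here gives the day of sampling, are set beside both days as a reference. No test against them is reported here, but their arrays enter the estimate of the spread in the fit of all 6 groups. The tissue is a whole segment of cord with everything that lies in it, so fewer cells of a type and less RNA per cell cannot be told apart.

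In the second week after a compression injury the lesion is still being remodelled: macrophages clear myelin, fibroblasts and reactive astrocytes divide and lay down scar matrix, and surviving neurons express growth-associated peptides. By the eighth week a cavity and a mature scar have usually formed. Scar matrix consists of fibrillar collagens and of matricellular proteins such as tenascin-C and periostin, which are made during repair and are scarce in the intact adult cord.

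The values were log2 expression summaries, in which a difference of 1 is a 2-fold change, and values of different genes cannot be compared with each other. Spinal cord markers were present on both days: the myelin protein gene Mag had a mean of 13.19 on day 14 and 12.58 on day 56, and the positional gene Hoxa9 7.65 and 8.63. Correlations between arrays were 0.9914 to 0.9951 within day 56, 0.9829 to 0.9955 within day 14 and 0.9806 to 0.9928 between the days. Day 14 replicate 3 stood apart: its mean over 33 neuron and synapse genes was 7.54 where the other day 14 arrays had 9.07 to 9.21, and over 45 fibrillar scar matrix genes it was 8.72 where they had 7.41 to 7.65. The methods describe pre-processing of the arrays of one day apart from those of the others, and the deposited values do not show whether they come from separate runs or from 1. If separate, a difference between the days and one between the runs cannot be told apart. The mean of 27 bacterial control probe sets, which have no target in rat RNA, was 2.75 on day 56 and 2.86 on day 14 (difference -0.116, exact two-sided permutation test of 4 against 4 arrays, p = 0.0571, where 0.029 is the smallest possible). Values near this level carry no exact size, and the level of the control probe sets below means that of these 27. The mean of 18 hybridisation spike-in probe sets was 11.58 on day 56 and 11.41 on day 14 (difference 0.172, exact permutation p = 0.0571). The 2 kinds of control thus differed in opposite directions, and their part in the gene differences was not tested. RNA integrity, read as the difference between the 3′ and 5′ probe sets of beta-actin, was 1.19 on day 14 and 1.24 on day 56 (exact permutation p = 0.257).

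Between the 2 days 48 of 14218 genes (0.338%) passed an adjusted p of 0.05 in limma with Benjamini-Hochberg adjustment, of which 27 (0.19%) were higher on day 56 and 21 (0.148%) lower. In 31 of them (0.218%) the change was at least 1 on the log2 scale. For 47 of the 48 genes the 4 values of one day lay entirely above the 4 of the other, the exception being Aspg. With quantile normalization of all arrays together 29 genes were higher and 38 lower, so that 43.3% of the calls were higher in place of 56.2%. Over all genes such separation was found for 356 genes higher on day 56 (2.5%) and 1222 lower (8.59%). Among the 8690 genes with a mean of at least 5 on either day, the separated genes were nearly balanced, with 3.82% higher and 4.53% lower. Among the 5528 genes under 5 on both days 0.434% were higher and 15% lower. That is the direction in which the bacterial control probe sets differ, and the part of background in this was not tested. All 21 lower calls had a mean of at least 5 on one of the days, whereas 11 of the 27 higher calls lay under 5 on both.

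The calls rest on the spread over all 6 groups of the series. In a fit of the 8 arrays alone 9 genes were called, of which 6 were among the 48 (Tnc, Tnfrsf12a, Ccnb2, Mtmr2, Coch and Mgst1), so the other 42 calls end there. The removal of any single array left 19 of the 48 genes called throughout. For each other gene the number of arrays whose removal ends its call is given beside it, together with the highest adjusted p among these removals and the array it belongs to.

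The largest falls were in scar matrix. Tnc encodes tenascin-C, an extracellular glycoprotein of healing wounds. Its 4 day 14 values were 9.67, 9.66, 10.35 and 9.30 and its 4 day 56 values 5.64, 5.19, 5.10 and 5.81. All day 56 values thus lay over 3 log2 units under all day 14 values, and the means differed by -4.31 ± 0.541 (SE), or 19.8-fold (limma, adjusted p = 0.000724). Postn encodes periostin, a fibroblast protein that binds collagen. Its values were 8.93, 7.19, 10.53 and 8.19 on day 14 and 4.22, 3.06, 4.11 and 4.26 on day 56. The groups did not overlap, although day 14 replicate 3 was the highest by far, and the difference was -4.80 ± 0.709 (27.8-fold, adjusted p = 0.00233). Both calls held without any single array. On day 56 Postn was at 3.91 ± 0.574 (SD, n = 4), close to the level of the control probe sets, and sham cord had 3.04 ± 0.0561, so the size of its fall is not exact. Tnc remained at 5.44 ± 0.345 against 4.001 ± 1.43 in sham cord.

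**Figure D1:**
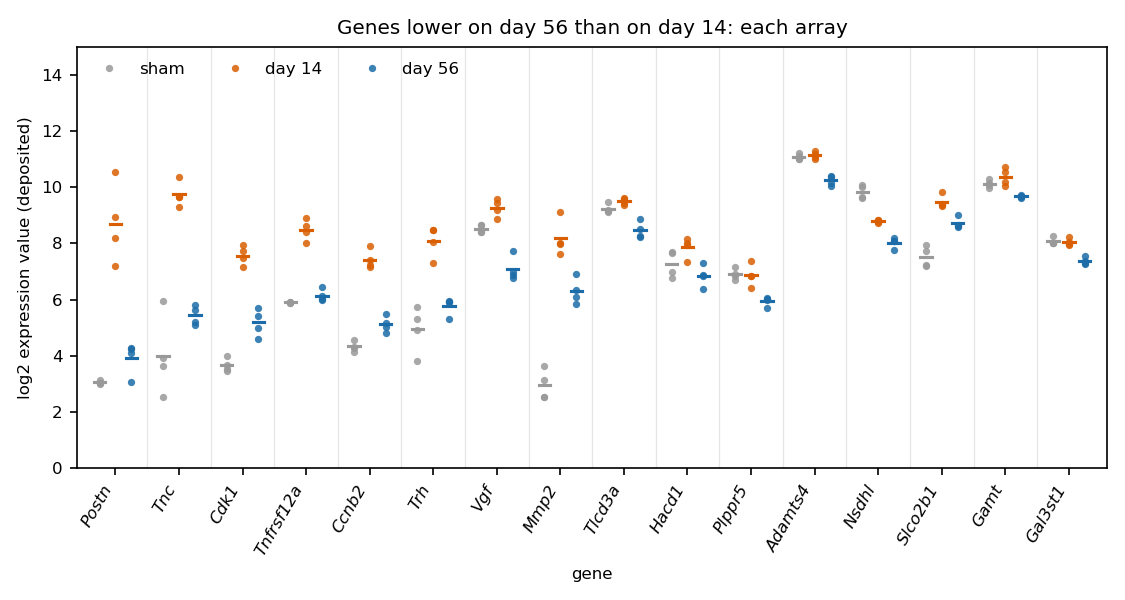
Deposited log2 expression value of each array for the 16 genes with the largest falls among those called lower on day 56. Grey dots are sham arrays, orange dots day 14 and blue dots day 56, with 4 rats a group, and short lines are group means. Every blue value lies under every orange value of the same gene, and for Vgf, Tlcd3a, Plppr5, Adamts4, Nsdhl, Gamt and Gal3st1 the blue values also lie under the grey ones.

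The other genes of fibrillar scar matrix moved less. Of 45 measured, 2 were called, both lower and both described above, and 40 had a negative difference. Of all 14218 genes tested, 8828 had a negative difference and 5390 a positive one. The sign counts of this and the later lists are to be read against these shares. The 45 genes had a median of -0.539, where all genes tested had -0.037. With an unadjusted p under 0.05, 12 were lower and 0 higher, where 11.7% of all genes were lower and 3.88% higher. Cthrc1, a secreted protein of repair fibroblasts, had 5.83, 5.49, 9.13 and 6.49 on day 14 and 3.79, 3.24, 3.39 and 3.22 on day 56 (-3.33, adjusted p = 0.0586). Thbs2, the matricellular protein thrombospondin 2, had a mean of 7.86 ± 0.626 on day 14 and 6.27 ± 0.567 on day 56 (-1.59, adjusted p = 0.072). Neither passed the test, though in both the groups did not overlap. The major collagen genes, named after their values had been seen, overlapped between the days: Col1a1 had 12.36 ± 0.949 and 11.26 ± 0.729 (adjusted p = 0.469), and Col3a1 13.16 ± 0.913 and 12.31 ± 0.812 (adjusted p = 0.757). Against 8.82 and 9.76 in sham cord, both collagens were high on either day. Without day 14 replicate 3 the list's median was -0.180, and Tnc and Postn passed without that array.

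Basement membrane, the sheet of collagen IV and laminins under vessels and glia, had no called gene among 18 measured. Its median was -0.247, and -0.055 without day 14 replicate 3. Col4a2 had means of 7.39 and 5.92 (adjusted p = 0.28) and Col4a1 of 9.31 and 7.97 (adjusted p = 0.308), with no overlap in either.

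Of 28 measured matrix proteases and their inhibitors 2 were called, both lower. Adamts4, an aggrecanase that cleaves proteoglycans, had 11.09, 11.20, 11.01 and 11.28 on day 14 and 10.15, 10.06, 10.36 and 10.41 on day 56. It fell by 0.90 ± 0.119 (1.87-fold, adjusted p = 0.000968) from a level near that of sham cord (11.09 ± 0.102), and the call held without any single array. Mmp2, the collagen-degrading gelatinase A, had 7.62, 8.02, 9.14 and 7.98 on day 14 and 6.10, 6.35, 5.84 and 6.90 on day 56. This difference of -1.90 ± 0.397 (3.72-fold, adjusted p = 0.0462) ended with the removal of 7 of the 8 arrays (up to 0.15 without day 56 replicate 1), and the second Mmp2 probe set had a difference of -0.03. On day 56 Mmp2 was still above sham cord (2.96 ± 0.531) on all arrays. The inhibitor Timp4 had means of 4.92 and 6.19 and did not pass (adjusted p = 0.308). The list's median was -0.087.

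Genes of cell division form the second group. Cdk1, the kinase that drives entry into mitosis, and Ccnb2, which encodes its partner cyclin B2, were the 2 of 38 measured genes called, both lower. The promoters of these genes are shown because mitotic genes are known to share a CCAAT box and a cell cycle homology element (TTTGAA) near the start. The window runs from 250 bases before to 50 after the start of the RefSeq gene on build GRCr8, 5′ to 3′ on the gene's strand, with CCAAT and TTTGAA on either strand in capitals (ATTGG is CCAAT and TTCAAA is TTTGAA on the opposite strand). The Cdk1 window is chr20:19265043-19265342 (plus strand) and the Ccnb2 window chr8:79981609-79981908 (minus strand).
Cdk1: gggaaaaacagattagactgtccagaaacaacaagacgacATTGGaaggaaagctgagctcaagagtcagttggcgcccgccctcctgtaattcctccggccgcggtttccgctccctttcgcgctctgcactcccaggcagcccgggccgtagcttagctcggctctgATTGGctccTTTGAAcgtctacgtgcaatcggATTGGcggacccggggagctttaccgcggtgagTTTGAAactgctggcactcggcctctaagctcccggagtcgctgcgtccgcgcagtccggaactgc
Ccnb2: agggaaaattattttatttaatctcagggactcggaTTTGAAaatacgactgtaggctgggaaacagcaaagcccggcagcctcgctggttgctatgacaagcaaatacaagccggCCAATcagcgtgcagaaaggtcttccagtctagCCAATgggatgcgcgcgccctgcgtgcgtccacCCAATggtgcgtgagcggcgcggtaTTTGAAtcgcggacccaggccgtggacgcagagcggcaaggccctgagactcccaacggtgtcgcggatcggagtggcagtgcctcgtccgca
In Cdk1 the CCAAT letters stood 3 times on the opposite strand, at -210, -81 and -49 from the start, and TTTGAA at -72 and -16. In Ccnb2 CCAAT stood at -134, -101 and -68 and TTTGAA at -214 and -43. Of 33469 promoters of this length 37.5% held CCAAT, 18.3% TTTGAA and 7.41% both. Of the 33 windows found for 31 of the listed cell division genes, 69.7%, 48.5% and 42.4% did. The motifs were chosen after the values had been seen, and such a match is a description of the letters and not of binding.

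Cdk1 had 7.46, 7.15, 7.93 and 7.73 on day 14 and 5.42, 4.99, 4.61 and 5.71 on day 56. The days were separated by over 1 log2 unit, and the difference was -2.39 ± 0.404 (5.22-fold, adjusted p = 0.00987), a call that held without any single array. For Ccnb2 the values were 7.16, 7.22, 7.90 and 7.43 on day 14 and 5.50, 5.01, 4.81 and 5.17 on day 56. It fell by 2.31 ± 0.482 (4.94-fold, adjusted p = 0.0462), and the call ended with the removal of any of the 8 arrays (up to 0.134 without day 56 replicate 3) but was made in the fit of the 8 arrays alone (adjusted p = 0.024). Sham cord had 3.66 ± 0.241 for Cdk1 and 4.33 ± 0.181 for Ccnb2, and both day 56 means lay above these, given as values only. Aurkb, a kinase of chromosome segregation, had 8.48, 9.86, 8.74 and 9.11 on day 14 and 8.50, 6.29, 5.81 and 6.01 on day 56 (adjusted p = 0.062). Day 56 replicate 1 reached the day 14 range here and the other 3 did not. The proliferation marker Mki67 had means of 8.36 ± 0.638 and 6.75 ± 0.642 without overlap (adjusted p = 0.191). Of the 38 genes 37 had a negative difference, with a median of -0.412, and 12 were lower with an unadjusted p under 0.05. Over all 14218 genes tested 8828 had a negative difference, and 11.7% were lower at that p. Only 19 of the 38 had a mean of at least 5 on either day, and the median of these was -0.716. Lists with few genes at that level had such sign counts too, with smaller medians. All 24 skeletal muscle genes (2 at that level, median -0.170) and all 12 mast cell genes (0 at that level, median -0.070) had a negative difference. The mean over the list was 4.81 to 5.28 on the day 14 arrays, 4.32 to 4.57 on the day 56 arrays and 3.96 to 4.11 on the sham arrays, with no overlap between any of the 3 groups.

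Tnfrsf12a, the receptor for the cytokine TWEAK, gave the smallest p of all genes. Its values were 8.02, 8.91, 8.61 and 8.41 on day 14 and 5.97, 6.01, 6.45 and 6.14 on day 56. The day 56 arrays were back near sham cord (5.89 ± 0.0262), and the fall was 2.34 ± 0.203 (5.07-fold, adjusted p = 5.13e-06). This was the 1 call among 28 measured TNF family genes and receptors, whose median was -0.040, and it held without any single array.

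Vgf, Trh and Plppr5, all known from neurons, were called lower. Vgf encodes a secreted peptide precursor induced by neurotrophins. It had 9.58, 9.44, 8.87 and 9.20 on day 14 and 6.99, 6.77, 7.73 and 6.87 on day 56, a difference of -2.19 ± 0.252 (4.55-fold, adjusted p = 0.000247). On day 56 Vgf was under sham cord (8.39 to 8.67) on every array, and on day 14 above it. Trh, the precursor of thyrotropin-releasing hormone, had 8.48, 7.29, 8.47 and 8.05 on day 14 and 5.31, 5.95, 5.91 and 5.92 on day 56. Its fall of 2.30 ± 0.365 (4.93-fold, adjusted p = 0.00524) ended near the sham level of 4.94 ± 0.82. Both calls held without any single array. Plppr5, a membrane protein of neurons, had 6.84, 6.84, 6.41 and 7.37 on day 14 and 5.97, 5.70, 6.07 and 6.03 on day 56 (-0.92 ± 0.187, adjusted p = 0.0417). That call ended with 7 of the 8 removals (up to 0.13 without day 56 replicate 2), and sham cord had 6.90 ± 0.185. The second Plppr5 probe set had a difference of -0.45, and with the mean of its probe sets the gene did not pass (limma, adjusted p = 0.168).

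Other spinal neuropeptides had lower values without passing the test. Of 22 measured, 1 was called (Trh), 20 had a negative difference, and the median was -0.194. Npy, neuropeptide Y, had 8.99 ± 0.304 on day 14 and 8.06 ± 0.236 on day 56 (adjusted p = 0.141). The calcitonin gene-related peptide genes, known from sensory and motor neurons, had 5.76 ± 0.295 and 3.93 ± 0.45 for Calcb (adjusted p = 0.21), and for Calca 10.17, 9.07, 6.10 and 9.95 on day 14 and 6.50, 5.43, 6.89 and 5.50 on day 56 (adjusted p = 0.243). Day 14 replicate 3, the array with low neuronal values, was also the low one of Calca. Axon growth genes gave 1 call of 27 measured (Vgf) and a median of -0.162. At an unadjusted p under 0.05, 7 of them were lower, where 11.7% of all genes were. In the neuron and synapse list 0 of 33 genes passed in limma, with 1 under an unadjusted p of 0.05 (Syt4, 10.90 ± 0.431 and 9.91 ± 0.446). The median of that list was 0.187, and -0.293 without day 14 replicate 3, so its sign rests on that array. The calls of Vgf and Trh held without it.

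Myelin and its lipids were the next group of lower genes. Gamt, the creatine-making methyltransferase that is abundant in oligodendrocytes, had 10.20, 10.56, 10.05 and 10.72 on day 14 and 9.68, 9.73, 9.64 and 9.63 on day 56. It fell by 0.71 ± 0.115 (1.63-fold, adjusted p = 0.00646) and held without any single array. Gal3st1, the sulfotransferase that makes the myelin lipid sulfatide, had 7.95, 8.22, 7.98 and 8.06 on day 14 and 7.31, 7.27, 7.37 and 7.56 on day 56. This fall of 0.67 ± 0.131 (1.59-fold, adjusted p = 0.0326) ended with 7 of the 8 removals (up to 0.126 without day 14 replicate 2). Sham cord had 10.13 ± 0.146 for Gamt and 8.08 ± 0.12 for Gal3st1, so that the day 14 means lay near sham and the day 56 means under it. All 29 measured oligodendrocyte and myelin genes had a negative difference, with a median of -0.382. Of these 12 had an unadjusted p under 0.05, where 11.7% of all genes were lower at that p. Mag had 13.14, 13.36, 12.88 and 13.38 on day 14 and 12.46, 12.54, 12.65 and 12.65 on day 56 (adjusted p = 0.16), and the myelin protein plasmolipin, Pllp, had means of 11.91 and 11.43 (adjusted p = 0.302). The mean over the list was 10.50 to 11.15 on day 14, 10.37 to 10.58 on day 56 and 11.28 to 11.47 in sham cord. Only day 14 replicate 3, at 10.50, reached the day 56 range, and without it the median was -0.535. Of 12 oligodendrocyte precursor genes 0 passed in limma. At an unadjusted p under 0.05, 3 were lower and 1 higher, where all genes had 11.7% lower and 3.88% higher. Among the lower ones the transcription factor Nkx2-2 had 11.09 ± 0.197 and 10.20 ± 0.238 without overlap (adjusted p = 0.0706).

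Further called genes of lipids and membranes had differences of -1.03 to -0.38. Hacd1, a dehydratase of fatty acid elongation, fell by 1.02 ± 0.215 (adjusted p = 0.0474). Peds1, the desaturase that makes plasmalogens, fell by 0.57 ± 0.111 (adjusted p = 0.0345), and Gltp, a glycolipid transfer protein, by 0.55 ± 0.114 (adjusted p = 0.0462). Mtmr2, a phosphoinositide phosphatase, had 11.54, 11.51, 11.48 and 11.54 on day 14 and 11.10, 11.13, 11.17 and 11.14 on day 56. The SDs were 0.027 and 0.0305, and the fall was 0.38 ± 0.0745 (1.3-fold, adjusted p = 0.0326, and 0.00627 in the fit of the 8 arrays alone). The second Mtmr2 probe set had a difference of -0.13. Tlcd3a, a membrane protein, fell from 9.50 ± 0.122 to 8.47 ± 0.302 (-1.03 ± 0.135, adjusted p = 0.000968), while its second probe set had a difference of -0.05. Of these 5 genes the call of Tlcd3a held without any single array. The calls ended with 6 removals for Hacd1 (up to 0.173, without day 14 replicate 2), 7 for Peds1 (up to 0.126) and Gltp (up to 0.176), both without day 14 replicate 2, and 8 for Mtmr2 (up to 0.103, without day 14 replicate 1).

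Cholesterol synthesis, which supplies myelin, had 1 call among 21 genes. Nsdhl, a late enzyme of the pathway, had 8.76, 8.85, 8.72 and 8.83 on day 14 and 7.76, 8.09, 8.07 and 8.18 on day 56. The fall of 0.76 ± 0.146 (1.7-fold, adjusted p = 0.0275) added to a level already under that of sham cord (9.84 ± 0.235). The call ended with 6 of the 8 removals (up to 0.112 without day 56 replicate 1). The second Nsdhl probe set had a difference of -0.23, and with the mean of its probe sets the gene did not pass (limma, adjusted p = 0.192). Of the 21 genes 20 had a negative difference, with a median of -0.428. At an unadjusted p under 0.05, 5 were lower and 1 higher, where all genes had 11.7% lower and 3.88% higher. Idi1, isopentenyl diphosphate isomerase, had means of 9.74 and 8.65 (adjusted p = 0.118), Acat2, the first enzyme of the route, 8.94 and 8.03 (adjusted p = 0.243), and Sqle, squalene epoxidase, 8.02 and 6.80 (adjusted p = 0.283), all under the sham means of 11.90, 10.97 and 10.13. Srebf1, which encodes a transcription factor of fatty acid and sterol synthesis, moved the other way. It had 10.21, 10.24, 10.60 and 10.03 on day 14 and 11.76, 11.91, 11.33 and 12.01 on day 56, a rise of 1.49 ± 0.21 (2.8-fold, adjusted p = 0.00155) that held without any single array, and its second probe set was called too, with 1.62. Sham cord had 9.003 ± 0.485. Scd, a fatty acid desaturase, had 5.67, 5.83, 5.83 and 5.81 on day 14 and 3.34, 3.78, 3.02 and 3.04 on day 56, against 9.68 in sham cord. It did not pass (-2.49, adjusted p = 0.101) but was called in the fit of the 8 arrays alone (adjusted p = 0.00627).

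The remaining lower calls were Slco2b1, an organic anion transporter, Jpt2 and Rhog, a small GTPase. Slco2b1 had 9.39, 9.83, 9.32 and 9.36 on day 14 and 8.66, 8.64, 8.60 and 9.02 on day 56 (-0.75 ± 0.155, adjusted p = 0.046), with sham cord at 7.52 ± 0.368. The second Slco2b1 probe set had a difference of -0.52, and with the mean of its probe sets the gene did not pass (limma, adjusted p = 0.143). Jpt2 fell by 0.52 ± 0.11 (adjusted p = 0.0462). Rhog fell by 0.35 ± 0.0705 (adjusted p = 0.0435) and is named after its values had been seen. Each call ended with 7 of the 8 removals, with an adjusted p of up to 0.177 and 0.14 (without day 14 replicate 2) and 0.15 (without day 56 replicate 1).

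Among the genes that rose, Coch had the largest difference. It encodes cochlin, a secreted protein known from the matrix of the inner ear. Its values were 4.92, 4.13, 4.99 and 4.26 on day 14 and 8.03, 8.67, 9.06 and 10.03 on day 56. The groups were separated by over 3 log2 units, and the rise was 4.37 ± 0.798 (20.7-fold, adjusted p = 0.0214). The call was also made in the fit of the 8 arrays alone (adjusted p = 0.0392) and ended with 4 of the 8 removals (up to 0.0745 without day 14 replicate 2). Sham values spread from 5.42 to 8.09, above all day 14 arrays.

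**Figure D2:**
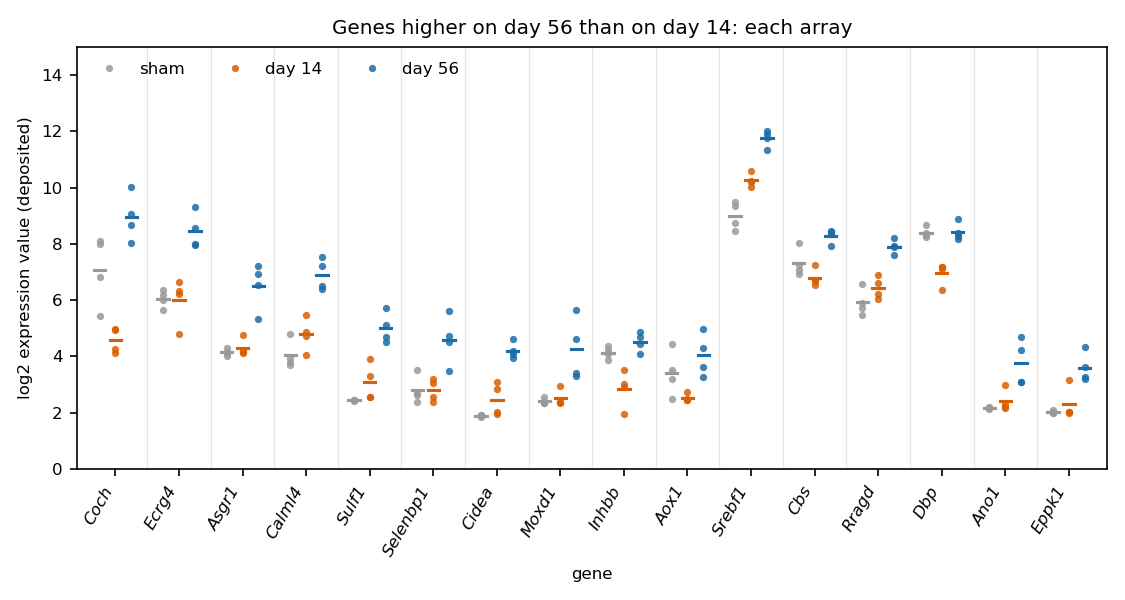
Deposited log2 expression value of each array for the 16 genes with the largest rises among those called higher on day 56. Grey dots are sham arrays, orange dots day 14 and blue dots day 56, with 4 rats a group, and short lines are group means. Every blue value lies above every orange value of the same gene, and several genes, among them Cidea, Moxd1, Ano1 and Eppk1, start near 2 to 3, where the control probe sets lie.

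Ecrg4, Asgr1, Calml4 and Sulf1 rose too. Ecrg4 encodes augurin, a secreted peptide precursor. It had 6.21, 6.65, 4.81 and 6.31 on day 14 and 8.00, 8.57, 7.95 and 9.30 on day 56, a rise of 2.46 ± 0.314 (5.5-fold, adjusted p = 0.000785) from a day 14 mean near that of sham cord (6.06 ± 0.306). Asgr1, a subunit of the asialoglycoprotein receptor known from hepatocytes, had 4.17, 4.18, 4.76 and 4.12 on day 14 and 6.54, 6.92, 5.34 and 7.22 on day 56 (2.20 ± 0.323, 4.58-fold, adjusted p = 0.00233). Calml4, a calmodulin-like protein, rose from 4.79 ± 0.585 to 6.91 ± 0.55 (2.13 ± 0.289, 4.37-fold, adjusted p = 0.00118). Sulf1, which removes sulfate from heparan sulfate chains outside the cell, had 2.57, 3.89, 2.55 and 3.29 on day 14 and 5.71, 4.51, 5.11 and 4.70 on day 56 (1.93 ± 0.307, adjusted p = 0.00524). Its second probe set had a difference of -0.05. In all 4 genes the day 56 values lay above all sham values, and the 4 calls held without any single array.

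Cbs, Rragd, Cyp7b1, Bdh2 and Mgst1 also rose. Cbs, the enzyme that joins homocysteine to serine, had 6.72, 6.67, 6.54 and 7.26 on day 14 and 7.92, 8.34, 8.42 and 8.45 on day 56 (1.49 ± 0.301, 2.8-fold, adjusted p = 0.0417). Rragd, a Rag GTPase of amino acid sensing, rose from 6.44 ± 0.38 to 7.91 ± 0.248 (1.47 ± 0.308, adjusted p = 0.0462). Cyp7b1, an oxysterol hydroxylase, rose from 6.23 ± 0.343 to 7.43 ± 0.169 (1.21 ± 0.249, adjusted p = 0.046). Each of these 3 calls ended with 7 of the 8 removals, with an adjusted p of up to 0.127 (without day 14 replicate 2), 0.181 and 0.159 (both without day 14 replicate 1). Bdh2, a dehydrogenase of hydroxybutyrate, had 3.92, 3.89, 4.67 and 4.56 on day 14 and 5.42, 5.48, 5.69 and 5.31 on day 56. On both days all values lay above the sham range of 3.34 to 3.71. The call of Bdh2 (1.22 ± 0.171, limma, adjusted p = 0.00153) held without any single array. Mgst1, a membrane-bound glutathione transferase named after its values had been seen, had 11.92, 12.18, 12.06 and 12.20 on day 14 and 12.95, 12.93, 13.04 and 12.93 on day 56. Its rise of 0.87 ± 0.119 (1.83-fold, adjusted p = 0.00118) held without any single array and in the fit of the 8 arrays alone (adjusted p = 0.0127).

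Clock genes were the 1 list with more than 1 call upward, with 2 of 17 measured, where 0.19% of all genes were called higher. Dbp, a transcription factor whose transcript cycles over the day, had 7.12, 7.18, 6.36 and 7.20 on day 14 and 8.40, 8.87, 8.18 and 8.28 on day 56. It rose by 1.47 ± 0.218 (2.77-fold, adjusted p = 0.00233) to the level of sham cord (8.41 ± 0.189), and the call held without any single array. Per3, a period protein of the clock, had 6.05, 6.05, 6.04 and 6.03 on day 14 and 6.95, 7.38, 6.88 and 7.37 on day 56 (1.10 ± 0.202, 2.15-fold, adjusted p = 0.0218). The 4 day 14 values of Per3 were almost identical, and the size of its rise may not be exact. The second probe set had a difference of -0.04, and 4 of the 8 removals ended the call (up to 0.0799 without day 56 replicate 2). Nr1d2, the repressor REV-ERB beta, had means of 9.63 ± 0.198 and 10.40 ± 0.153 without overlap (adjusted p = 0.0881). Per2 had 6.09 ± 0.137 and 6.93 ± 0.179, also without overlap (adjusted p = 0.16). In the other direction lay Nfil3, which opposes Dbp on the same DNA element, with 7.56 ± 0.295 and 6.93 ± 0.439 (adjusted p = 0.308), and Bmal1, an activator of the clock, with 7.02 ± 0.161 and 6.53 ± 0.201 (adjusted p = 0.342), both named after their values had been seen. The mean over the list was 7.39 to 7.56 on the day 14 arrays, 7.82 to 7.88 on the day 56 arrays and 7.64 to 7.76 in sham cord. The median difference was 0.330, and 6 genes were higher and 1 lower at an unadjusted p under 0.05. Over all genes 3.88% were higher and 11.7% lower at that p. No source used here gives the hour at which cord was taken, and its part in these differences was not tested.

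Several of the rises began at the level of the control probe sets, and their size is not exact. Cidea, a lipid droplet protein, had 1.94, 2.83, 2.01 and 3.10 on day 14 and 4.20, 4.08, 3.93 and 4.63 on day 56 (1.74 ± 0.192, adjusted p = 0.000178) with 1.83 to 1.93 in sham cord. It was the 1 call among 20 adipocyte genes and held without any single array. Selenbp1, a methanethiol oxidase, had means of 2.81 and 4.59 (adjusted p = 0.0195), Moxd1, a relative of dopamine beta-hydroxylase, 2.52 and 4.25 (adjusted p = 0.0274), and Aox1, aldehyde oxidase, 2.54 and 4.05 (adjusted p = 0.046). Inhbb, the beta B subunit of activin, was the 1 call among 30 TGF-beta and BMP genes, with 2.93, 3.04, 1.94 and 3.53 on day 14 and 4.09, 4.86, 4.71 and 4.44 on day 56 (1.67 ± 0.317, adjusted p = 0.0274). Sham cord had 4.14 ± 0.215 for Inhbb, near the day 56 values. On the same list Tgfb3 had 5.86 ± 0.569 and 3.88 ± 0.0805 without overlap and did not pass (adjusted p = 0.15). Ano1, a calcium-activated chloride channel, had means of 2.41 and 3.77 (adjusted p = 0.0412), and Eppk1, which binds intermediate filaments, 2.31 and 3.61 (adjusted p = 0.00964). Aspg, an asparaginase that was the 1 call among 21 reactive astrocyte genes, had 3.40, 2.19, 3.44 and 4.11 on day 56, where replicate 2 stayed in the day 14 range of 2.11 to 2.31 (adjusted p = 0.0462). The number of removals that ended a call was 1 for Eppk1, 2 for Selenbp1, 4 for Moxd1, 5 for Ano1, 6 for Inhbb and 7 for Aox1 and Aspg, with an adjusted p of up to 0.0578, 0.0874, 0.103, 0.13, 0.0936, 0.133 and 0.15. The values of Eppk1, Selenbp1, Moxd1 and Ano1 came without day 14 replicate 1. Those of Inhbb and Aox1 came without day 56 replicate 3, and that of Aspg without day 56 replicate 1. The p-values of these rises also draw on groups with little spread: Moxd1 had an SD of 1.11 on day 56 and 0.0952 in sham cord. In the fit of the 8 arrays alone (limma) the adjusted p was 0.154 for Cidea, 0.212 for Inhbb and 0.253 for Aox1. It was 0.285 for Selenbp1 and 0.317 for Moxd1, Ano1, Eppk1 and Aspg.

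Wee1, the kinase that holds Cdk1 inactive, rose while Cdk1 fell. It had 5.36, 5.25, 5.95 and 6.04 on day 14 and 6.52, 6.39, 6.96 and 6.80 on day 56 (1.02 ± 0.209, 2.02-fold, adjusted p = 0.046). The second probe set of Wee1 had a difference of 0.05, and 6 of the 8 removals ended the call (up to 0.177 without day 14 replicate 2). The remaining higher calls, named after their values had been seen, were Adam4 (1.00), Plekhd1 (0.99), Rbm24 (0.94), Atl2 (0.51) and Ogt (0.49), of which Adam4, Plekhd1 and Rbm24 stayed under 5 on both days. The call of Rbm24 held without any single array, and its 3 other probe sets had differences of -0.03, -0.03 and -0.04. For Adam4, Plekhd1 and Ogt 7 removals ended the call (up to 0.131 without day 56 replicate 2, and 0.114 and 0.149 without day 56 replicate 1) and for Atl2 5 (up to 0.104 without day 14 replicate 1), while the second probe set of Atl2, a membrane-shaping protein of the endoplasmic reticulum, was called too, with 1.08.

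**Figure D3:**
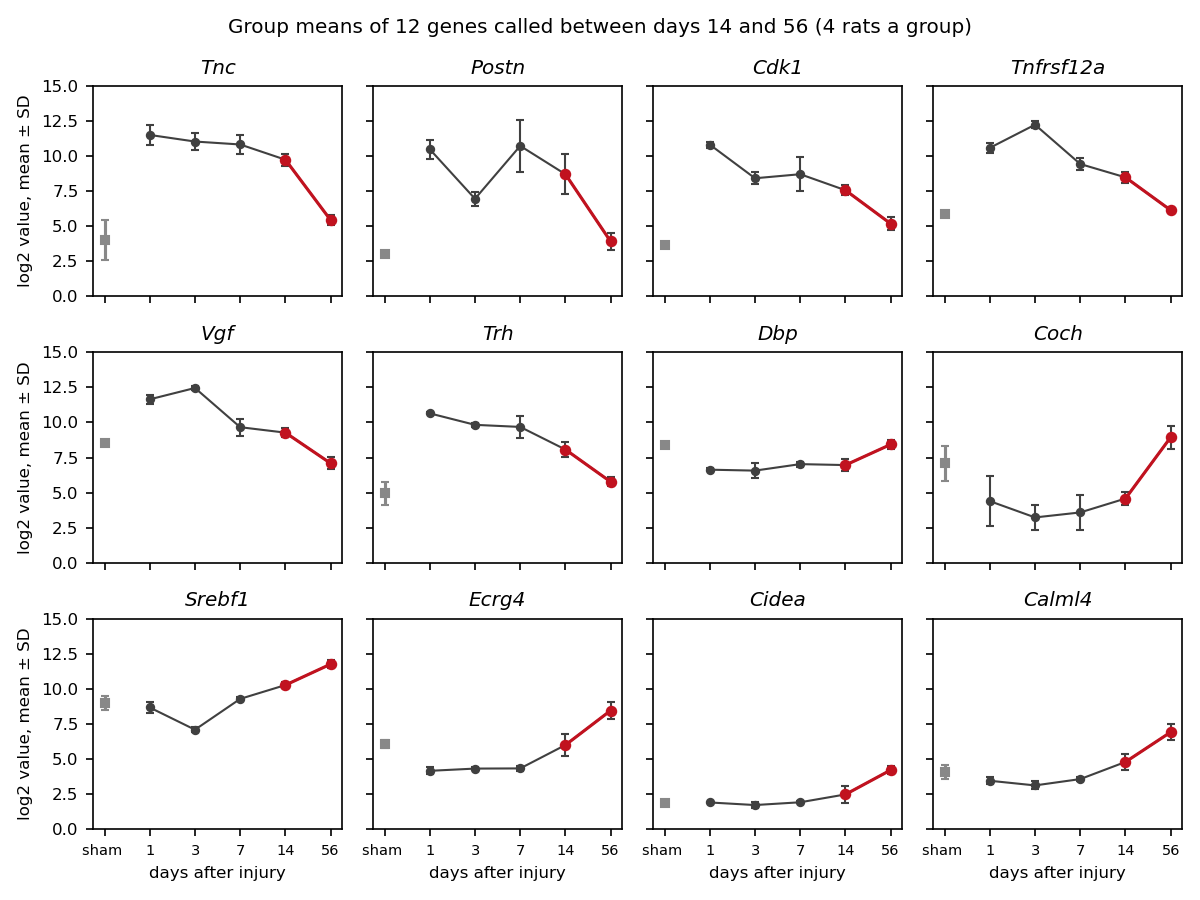
Group mean and SD of the deposited log2 value for 12 genes called between days 14 and 56, in sham cord (grey square) and on days 1, 3, 7, 14 and 56 (4 rats a group, days spaced evenly). The red segment joins the days compared here: Tnc, Postn, Cdk1, Tnfrsf12a, Vgf and Trh end it lower, and Dbp, Coch, Srebf1, Ecrg4, Cidea and Calml4 higher.

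Set beside sham cord, the called genes ended on both sides of it, as the plot of group means over the days shows. For Tnc, Cdk1 and Tnfrsf12a the day 14 means were above sham by 5.74, 3.91 and 2.59 on the log2 scale, and the day 56 means by 1.43, 1.52 and 0.25. Vgf, Adamts4 and Tlcd3a were above sham by 0.75, 0.05 and 0.27 on day 14 and had differences of -1.44, -0.85 and -0.75 from it on day 56. Dbp had a difference of -1.44 from sham on day 14 and of 0.03 on day 56. Ecrg4, Asgr1 and Cidea differed from sham by -0.06, 0.15 and 0.58 on day 14 and by 2.40, 2.35 and 2.32 on day 56. These differences share the sham arrays and are given as values only.

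Of the 60 gene lists examined, 13 held a called gene and 47 held 0. Of the 48 called genes 17 were on a list, where the lists held 1224 of the 14218 genes tested. The 13 include a list of 9 genes named in an earlier account of the series, of which 1 was called higher and 3 lower. The 17 are counted without that list. The plot of list members shows 20 of the lists.

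**Figure D4:**
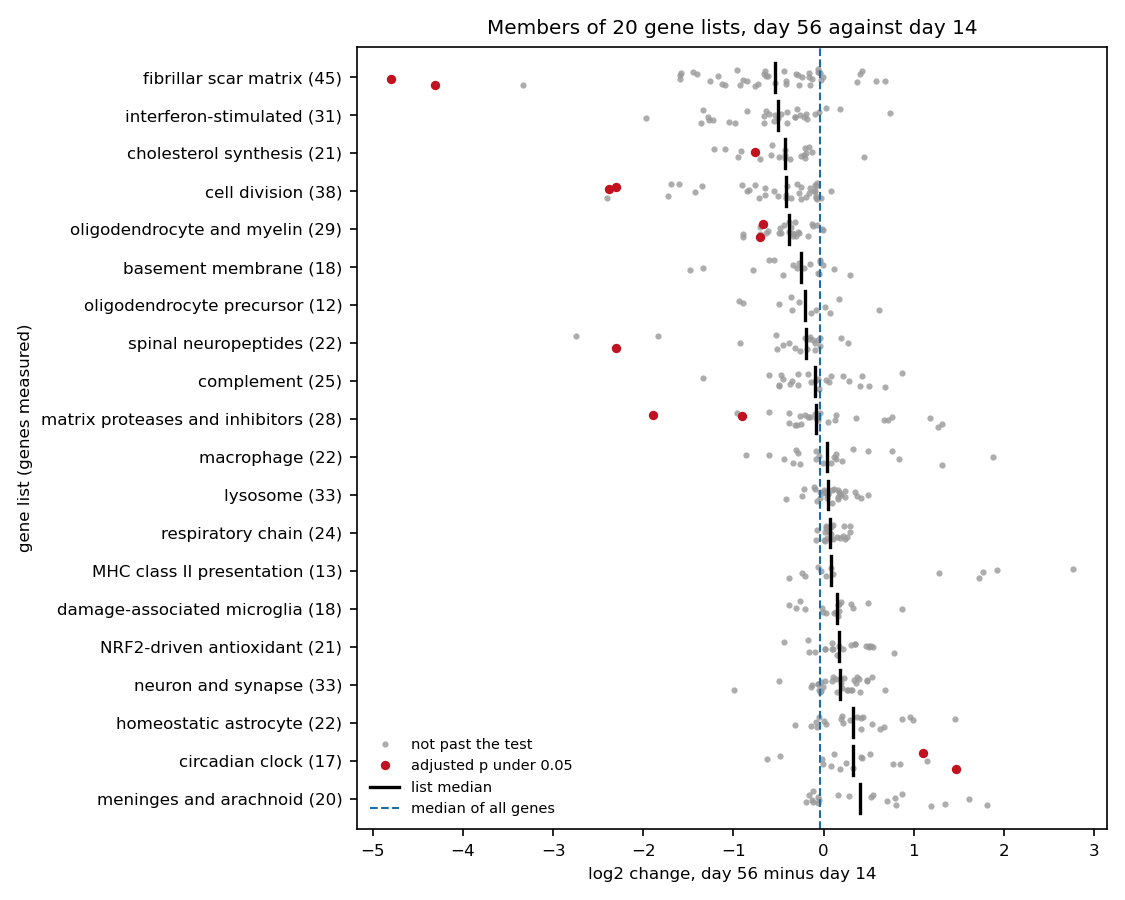
Log2 difference, day 56 minus day 14, of every measured gene of 20 lists, with the number of genes in parentheses. Grey dots did not pass, red dots had an adjusted p under 0.05, black bars are list medians and the dashed line is the median of all genes. The medians run from -0.539 for fibrillar scar matrix to 0.401 for meninges and arachnoid, and the genes farthest from 0 are Postn and Tnc.

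Lists of leukocytes, microglia and interferon response held no called gene in limma. Of 31 interferon-stimulated genes 5 were lower and 0 higher at an unadjusted p under 0.05, and of 13 genes of MHC class II presentation 1 was lower and 5 higher. Of 22 macrophage genes 0 were lower and 1 higher, of 10 homeostatic microglia genes 3 were lower, and of 18 damage-associated microglia genes 0 reached that p. For 25 complement genes the counts were 5 lower and 2 higher, for 24 T and NK cell genes 6 and 1, for 15 B and plasma cell genes 3 and 0, and for 9 neutrophil genes 0 and 0. Over all genes 11.7% were lower and 3.88% higher at that p, and of the T and NK, B and plasma cell and neutrophil genes only 3, 2 and 2 had a mean of at least 5 on either day. Among all genes under 5 on both days, 15% were lower and 0.434% higher without overlap. The interferon-stimulated list had a median of -0.504, and -0.250 without day 14 replicate 3, the array with the highest mean over the list (10.04 where the others had 8.46 to 9.05). Oasl, an interferon-induced oligoadenylate synthetase-like protein, had 6.95, 6.62, 9.48 and 6.28 on day 14 and 5.52, 4.98, 4.81 and 6.13 on day 56 (adjusted p = 0.0944). The MHC class II genes, which present antigen to helper T cells, varied widely among the day 56 rats, and near-identical RT1 genes may share signal on their probe sets. RT1-Db1 had 10.91, 8.57, 9.06 and 6.12 on day 56 and 5.79, 5.51, 6.70 and 5.60 on day 14 (2.77 ± 0.885, adjusted p = 0.29). RT1-Bb, RT1-Da and RT1-Ba had differences of 1.93, 1.73 and 1.77 with adjusted p of 0.304, 0.308 and 0.308. In each of these genes day 56 replicate 1 was the highest and replicate 4 the lowest of its day. Of the 13 listed MHC class II genes, 8 had a positive and 5 a negative difference, with a median of 0.085. For macrophages Arg1, arginase, had 4.59, 4.79, 4.57 and 4.87 on day 14 and 7.01, 5.67, 7.78 and 5.88 on day 56 without overlap (adjusted p = 0.312). Arg1 had the largest rise of the 22 macrophage genes, of which 11 were higher and 11 lower, with a median of 0.035. The mean over the macrophage list was 7.71 to 8.71 on day 14 and 8.15 to 8.35 on day 56, where sham cord had 4.75 to 5.51. Among homeostatic microglia genes P2ry12 had 11.53 ± 0.166 and 10.88 ± 0.406 (adjusted p = 0.317).

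Among the lists without a call, the meninges and arachnoid list (20 measured), the list of thoracic position genes (11 measured) and the homeostatic astrocyte list (22 measured) had the 3 highest medians, with 0.401, 0.357 and 0.328. Without day 14 replicate 3 the thoracic position list had 0.040, where Hoxa9 was at 6.60 on that array and at 7.69 to 8.22 on the other day 14 arrays. The homeostatic astrocyte list had 0.113 without that array. Its mean was 9.21 to 10.05 on the day 14 arrays, 10.09 to 10.15 on day 56 and 10.51 to 11.10 in sham cord. Gjb6, the gap junction protein connexin 30 of astrocytes, had 7.45, 7.35, 8.55 and 7.80 on day 14 and 8.83, 8.66, 8.94 and 10.58 on day 56 (adjusted p = 0.359). The median of the meninges and arachnoid list ranged from 0.180 to 0.558 as single arrays were left out. Slc22a8, an organic anion transporter of barrier cells, had 4.28, 4.27, 4.27 and 4.19 on day 14 and 5.02, 4.93, 4.97 and 6.84 on day 56 (adjusted p = 0.191), and Ptgds, prostaglandin D synthase, 14.46 ± 0.327 and 15.32 ± 0.231 (adjusted p = 0.332). In both genes the days did not overlap.

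Lists of energy metabolism and antioxidant defence held no called gene. Of 24 respiratory chain genes 0 passed in limma, 22 had a positive difference and 7 were higher at an unadjusted p under 0.05, with a median of 0.075. Over all 14218 genes tested 5390 had a positive difference, and 3.88% were higher at that p. Of the 24 genes 23 had a mean of at least 5 on either day, a level at which all genes had a median of 0.017. With quantile normalization the list's median was 0.045, where all genes had -0.010. Ndufb3, a subunit of complex I, had 11.48 ± 0.162 and 11.77 ± 0.0924 without overlap (adjusted p = 0.271). Of 25 glycolysis genes 0 passed and 3 were higher at an unadjusted p under 0.05, with a median of 0.203. Slc16a3, a lactate transporter, had 4.92, 4.45, 5.89 and 4.39 on day 14 and 6.96, 7.14, 7.32 and 7.23 on day 56 (2.25 ± 0.659, adjusted p = 0.245). Of 21 antioxidant genes driven by NRF2 0 passed and 6 were higher and 1 lower at an unadjusted p under 0.05, with a median of 0.173. Sod1, a superoxide dismutase, had 11.48 ± 0.175 and 11.78 ± 0.0806 (adjusted p = 0.276).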

How the data were processed

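RNA from injured T7 cord was hybridised to Affymetrix rat arrays, each with RNA from an individual rat by the methods and 4 to a group. The p-values of the main fit rest on the spread within all 6 groups and not on that of the 8 compared rats alone. The authors made the deposited log2 values with affy 1.12.2 and GCRMA and left control probe sets in the table. The methods describe separate pre-processing of each time point, which the values themselves do not show. Of 31099 probe sets, 57 were controls, 20832 carried 1 gene symbol, 436 several and 9831 none here; of several probe sets of a gene the one with the highest average stands for it.

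No normalization was added. All 24 arrays were fitted in 6 groups with limma 3.58.1 in R 4.3.3 (lmFit, contrast day 56 minus day 14, eBayes without trend, 18 residual degrees of freedom), with Benjamini-Hochberg adjustment over the probe sets with 1 symbol and a threshold of 0.05. The script was tested on simulated data. These gave a probe set the same spread in all 6 groups, so they cannot show the effect of unequal spread between groups. For control probe sets an exact permutation test was used. Array depth is signal over background: genes with a mean under 5 on both days are called dim, and the number of arrays limits the precision.

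The comparison, the gene lists and the members were chosen with earlier results of these data known. Lists were described by counts and medians and not tested. Named genes are the 20 higher and 20 lower calls with the largest change whose groups do not overlap, and up to 4 members of a list by p. Promoters are from RefSeq. Alternatives were a fit of the 8 arrays alone, trend and robust moderation (statmod 1.5.0), an equal-variance t-test without moderation, quantile normalization and median centring. Others were a filter at 5, the replicate number as a block, the mean of probe sets, other thresholds, and each array left out. Figures were drawn with matplotlib 3.10.9 in Python 3.11.15 (numpy 2.4.6, pandas 2.3.3).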

Additional observations from a re-analysis of the deposited data

Results flagged for a closer look

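In the groups of 4 of the called genes, 9 of 96 held a value far from the other 3, with a gap to the nearest that takes up most of the range of the group, and chance alone gives this in about 5% of such groups. Postn was lowest on day 56 in replicate 2, with 3.057 where the others had 4.108 to 4.258, and Trh in replicate 1, with 5.31 where they had 5.906 to 5.945. Slco2b1 was highest on day 14 in replicate 2, with 9.833 over 9.323 to 9.389, and on day 56 in replicate 4, with 9.015 over 8.601 to 8.656. Day 14 replicate 3 gave 3 of the values: Dbp was lowest there, with 6.362 where the others had 7.121 to 7.195, and Moxd1 and Asgr1 were highest, with 2.962 over 2.357 to 2.379 and 4.763 over 4.124 to 4.178. Eppk1 was highest on day 14 in replicate 2, with 3.164 over 2.003 to 2.03, and Aox1 in replicate 4, with 2.731 over 2.467 to 2.481, both at the level of the control probe sets. The calls of Postn, Trh, Dbp and Asgr1 held without any single array.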

How the results depend on the processing

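The number of genes called (48, 27 higher and 21 lower) depended on how the spread was estimated. It was 9 in the fit of the 8 arrays alone (2 higher, 7 lower) and 31 with a log2 change of at least 1 required. An equal-variance t-test of the 8 arrays without moderation gave 4 (0 higher, 4 lower, with 3573 genes under an unadjusted p of 0.05). The paper's methods describe a moderated limma fit and not this test. Trend and robust moderation gave 41, median centring 44, the mean of probe sets 57, and quantile normalization 67, of which 38 were lower. With the filter at 5, 37 of 8690 genes were called, 17 of them higher. The paper listed genes of each day against sham with a p of at most 0.05 and a change of at least 1.5 on the log2 scale. These cut-offs, used here for day 56 against day 14, gave 68 genes. The p was the unadjusted one of limma, and the change was the median over a gene's probe sets that passed it.

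With the replicate number as a block 27 genes were called, 17 higher and 10 lower. The numbers did not pair the rats: the correlations of same-numbered arrays' deviations were 0.04, -0.02, -0.49 and -0.33. Leaving out single arrays gave 21 to 45 calls, 11 to 27 higher and 9 to 18 lower. The count moved by over 1.5 times without day 14 replicate 1 (21) and replicate 2 (24) and without day 56 replicate 1 (31), replicate 2 (29) and replicate 3 (28). Tnc was the only gene called under each of the 8 other fits and each removal. Over all called genes and settings 757 values were computed: 313 lost the call, 0 changed direction and the rest kept it. The lack of a change in direction was largely fixed in advance. For the 47 genes without overlap no single removal can change it, and fits that alter only the spread leave the difference as it is. The difference of bacterial control probe sets was -0.116 by means and -0.0942 by medians, and that of the hybridisation spike-ins 0.172 and 0.151. In the fits that lost calls the cause was not tested.

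Dim genes limit the comparison: 11 of the 27 higher calls lie under 5 on both days, and if the days were pre-processed separately, day and run cannot be told apart.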
